A study of Arabidopsis thaliana with 19 samples.

Results

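CLE and RALF genes encode small secreted peptides that plant cells use as signals, and 63 of them were examined in sperm chromatin of Arabidopsis thaliana, of 27432 nuclear protein-coding genes in all. They were the genes whose symbol in the gene annotation is CLE, RALF or RALFL followed by a number, together with CLV3 (AT2G27250), the founding member of the CLE family. RALF4 (AT1G28270) and RALF19 (AT2G33775), the best known pollen tube RALFs, were left out of the set. The set held 31 CLE genes, CLV3 among them, and 32 RALF genes.

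A CLE precursor is cut to a short peptide that binds leucine-rich repeat receptor kinases. CLE peptides are known for holding stem cell populations in check in shoot and root meristems and for directing the phloem and xylem. RALF peptides are cysteine-rich, raise the pH around the cell, and bind FERONIA and related receptor kinases together with GPI-anchored partners of the LORELEI family. Their best known roles are in root growth, in immunity, and in pollen tube growth and reception. Among histone marks, H3K4me3 and H3K27ac accompany transcription. H3K27me1 is typical of silent heterochromatin, and H3K27me3 is the product of a Polycomb complex that keeps developmental genes off.

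The samples were sperm nuclei of ecotype Col-0, genotype labelled wild type, sorted by fluorescence from a line carrying HTR10, the sperm histone H3.10, fused to Clover under its own promoter (ProHTR10:HTR10-Clover). All samples thus carried this transgene, and their chromatin was digested to mononucleosomes with micrococcal nuclease. There were 3 immunoprecipitations each of H3K4me3 and H3K27ac, 2 each of H3K27me1 and H3K27me3, and 3 of H3.10, beside 2 sets of 3 inputs; H3.10 was not analysed here. By their descriptions the samples of the 4 marks came from 1 of these sets, so that the marks share input samples. The authors deposited 1 narrow and 1 broad peak list per mark for all its replicates together. No value per sample, no replicate error and no depth is known from these lists, and no test between conditions was possible. The title of the series is about a resetting of H3K27me3 on the paternal side, and here the question was which marks sperm chromatin carried on the genes of these peptides.

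To count as marked, a gene needed 150 bp or more under peaks, about the DNA of 1 nucleosome. Unless another list is named, values for H3K4me3 and H3K27ac are from narrow peaks, and values for H3K27me1 and H3K27me3 are from broad peaks. Peptide genes are short: the median length was 717 bp in the set (829 bp for CLE and 544 bp for RALF genes) and 2078 bp over all genes. Each share is therefore also set beside the share among other genes within 10% of each member's length, averaged over the members. These shares are descriptions, and no test was made of their difference. The sperm genes DUO1, HAP2 and GEX2 had 1001, 754 and 873 bp under H3K4me3 and 896, 454 and 1111 bp under H3K27ac. VGD1, a pectin methylesterase gene of the vegetative cell, had 1760 bp under H3K4me3, 777 bp under H3K27ac and 1652 bp under H3K27me3. With H3K4me3 on 75.2% of all genes, these values do not tell sperm from vegetative nuclei. A part of vegetative nuclei in the signal was not tested, and a mark on a gene is no measure of its transcript here.

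**Figure D1:**
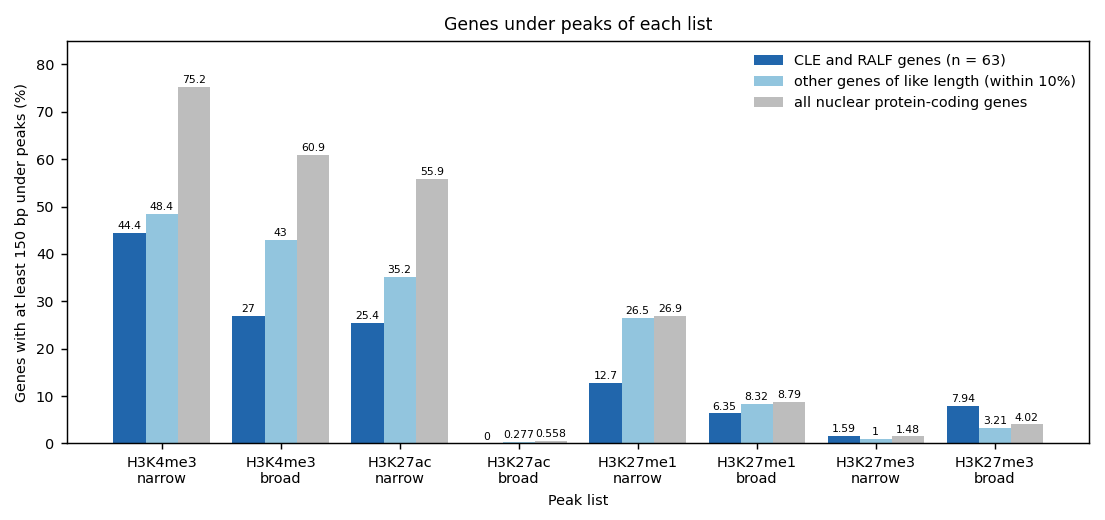
Percentage of genes with at least 150 bp under the peaks of each deposited list (vertical axis) for the 63 CLE and RALF genes, for other genes within 10% of their length (mean over members) and for all 27432 nuclear protein-coding genes. Bars are percentages without replicate error. For narrow H3K4me3 the first pair of bars stands at 44.4% and 48.4%, and the third at 75.2%.

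H3K4me3 lay on 28 of the 63 peptide genes (44.4%), on 48.4% of the genes of like length and on 75.2% of all genes. Of the 28, 15 were CLE and 13 were RALF genes. H3K27ac lay on 16 of the 63 (25.4%), on 35.2% of the genes of like length and on 55.9% of all genes, with 8 genes in each family. H3K27me1 lay on 4 (6.35%, against 8.32% at like length and 8.79% of all genes). H3K27me3 lay on 5 (7.94%, against 3.21% at like length and 4.02% of all genes). For H3K4me3 the peptide genes differed from other genes of like length by -3.94 points. That difference depended on the counting. It was -16 points with the broad list and -8.81 points with 500 bp added on each side of the gene. Counting only peaks with more bases on the gene than on any other protein-coding gene turned it to 3.67 points. For H3K27me3 the difference, 4.73 points in the broad list, is a matter of 5 genes and also depended on the counting. With the narrow list, which marked 1 member, it was 0.586 points. Requiring a minimum share of the span under broad peaks turned it to -0.595 points. For 4 of the 5 genes the broad peak has a listed q over 0.05, though whether that q belongs to its coordinates is unknown.

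By combination, 28 members (44.4%) had none of the 4 marks, against 42.7% of genes of like length and 19.1% of all genes. H3K4me3 alone was found on 13 members, and H3K4me3 with H3K27ac and no other mark on 13. CLE17 was the 1 member with H3K4me3, H3K27ac and H3K27me3. H3K27me3 was the only mark on 3 members, CLE4, CLE26 and CLE44, and it met H3K27ac on RALFL12. H3K27me1 alone was found on RALFL2 and RALFL30, with H3K4me3 on CLE16, and with H3K27ac on CLE11. Among genes with H3K4me3, H3K27ac was present on 14 of 28 members (50%), on 65.5% of genes of like length and on 71.2% of all. Both marks together lay on 7 CLE and 7 RALF genes, 22.2% of the set, against 31.7% at like length and 53.5% of all genes.

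**Figure D2:**
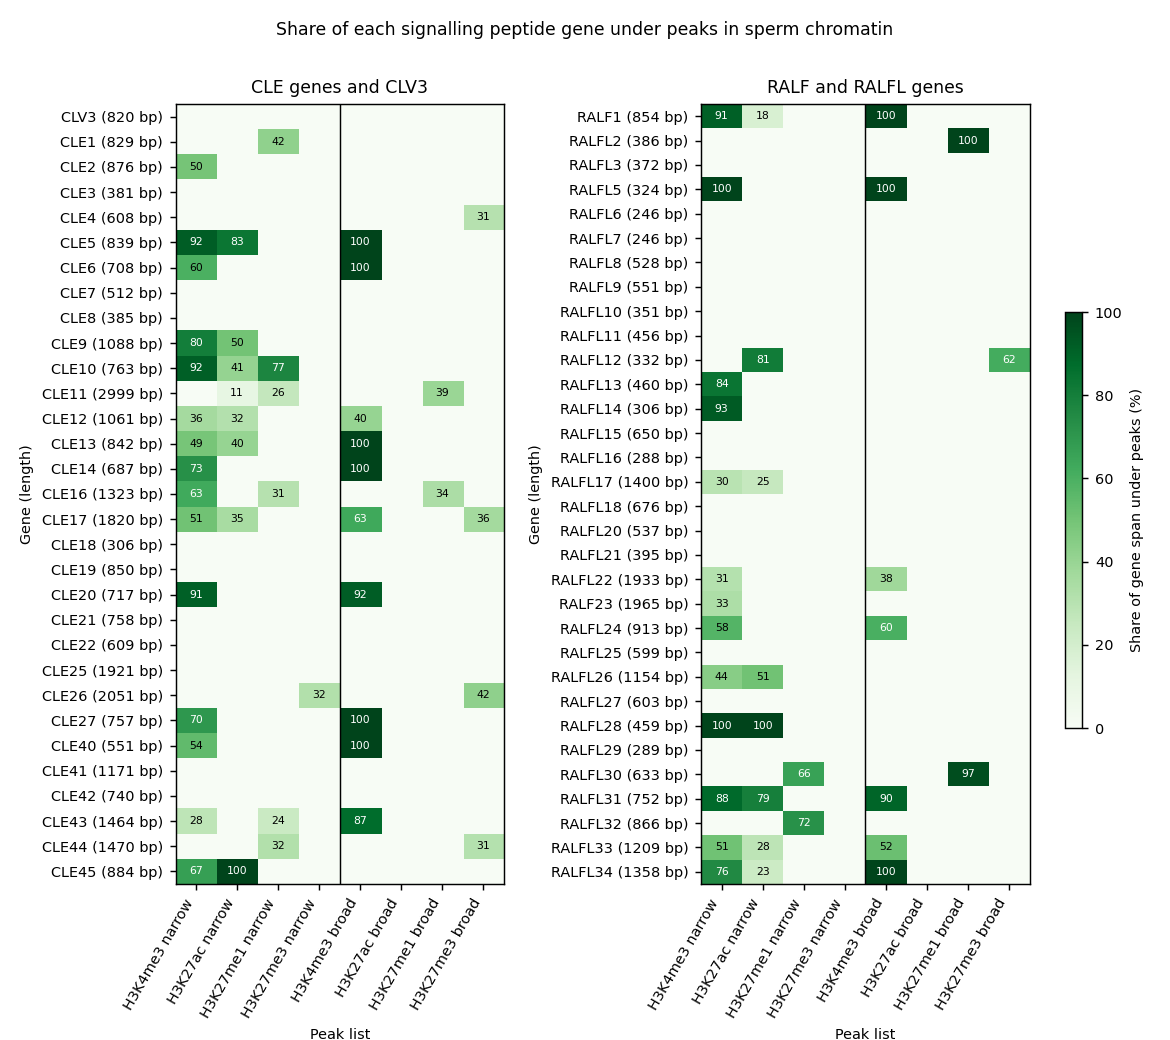
Share of each gene's span under the peaks of the 8 deposited lists (columns, colour and printed value in percent; blank cells are 0) for the CLE genes with CLV3 and the RALF genes (rows, with gene length). H3K4me3 and H3K27ac fill the left columns of some genes, many rows are blank throughout, and H3K27me3 appears on 4 CLE genes and on RALFL12.

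In none of the 8 lists did a member have any bases under peaks but fewer than 150. This describes called peaks and is no measure of a gap in signal, and which members were marked depended on the list. Nearest to the limit was RALF1, with 153 bp under H3K27ac, and for H3K4me3 the lowest value was 284 bp at RALFL14. The 28 members with H3K4me3 had a median of 529 bp under peaks (284 to 1025 bp), which was 64.8% of the span, while all genes with H3K4me3 had 824 bp and 38.1%. These bases and spans were not set beside genes of like length, and the median length over all genes was 2078 bp. Members with H3K4me3 had a median length of 865 bp and those without it 599 bp. Under 500 bp, 4 of 17 members (23.5%) had H3K4me3, beside 24.7% of all such genes. From 500 to below 1000 bp it was 13 of 30 (43.3%), beside 48.9%, and from 1000 bp up 11 of 16 (68.8%), beside 81.5%. H3K27ac was below the share of all genes in each of these classes, with 2, 6 and 8 members (11.8%, 20% and 50%) beside 16.7%, 36.5% and 60.7%. Within the families, H3K27ac lay on 25.8% of CLE genes, beside 40.3% at like length, and on 25% of RALF genes, beside 30.3%. Of the 5 members with H3K27me3, 3 were 1000 bp or longer.

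**Figure D3:**
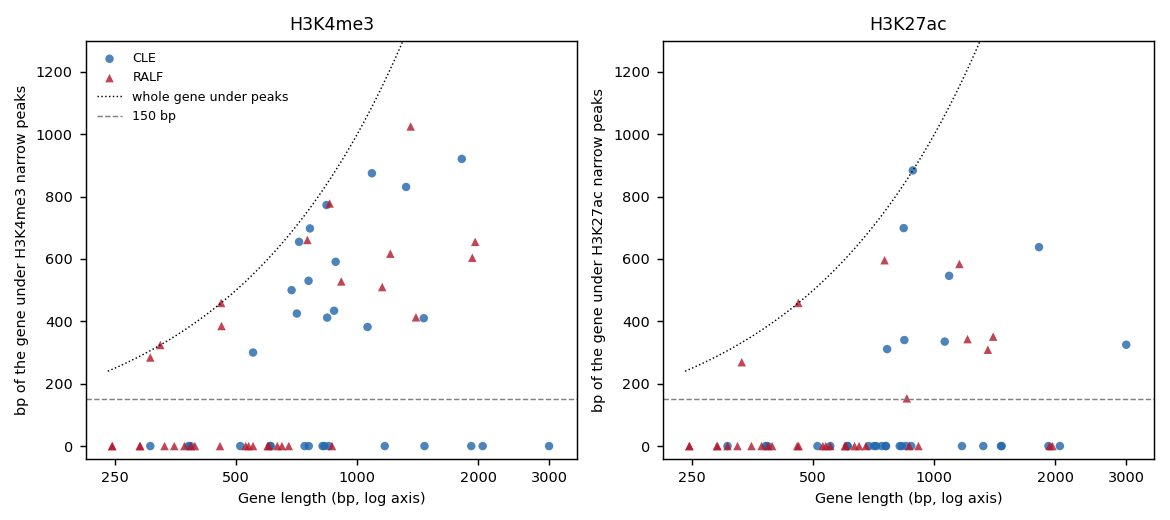
Bases of each member under narrow peaks of H3K4me3 (left) and H3K27ac (right) against gene length on a log axis, with CLE genes as circles and RALF genes as triangles. The dotted curve marks a gene wholly under peaks and the dashed line the 150 bp limit; every gene lies either at 0 or above the limit.

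The authors' H3K4me3 fold, the ratio of immunoprecipitation to control in a peak, was below the median of all marked genes on 19 of the 28 members. Its median was 3.18 over the 28 members (1.78 to 6.08), 3.71 at like length and 4.03 over all marked genes, and 9 members were above the last value. RALFL33, a RALF of the stigma that binds FERONIA, had the highest fold, 6.08. Its peak of 617 bp on chromosome 4, 8984805 to 8985421, lay wholly inside the gene, which an annotated lncRNA overlaps by 295 bp. RALFL17 had 5.76 and RALFL31 had 5.34, but the RALFL17 peak of 810 bp lay entirely on ATZW10, which overlaps it, and the RALFL31 peak covered 738 bp of its neighbour HOG1 and 661 bp of RALFL31. Next were CLE9 (5.22), CLE45 (5.15), CLE17 (4.97), CLE20 (4.62) and RALF23 (4.24). The CLE20 peak of 1515 bp ran 860 bp past the gene, with a transcribed pseudogene under it. The CLE45 peak of 1017 bp ran 426 bp past the gene, with an annotated lncRNA under it. At the low end stood CLE13 (1.78), CLE43 and CLE6 (1.95 each) and CLE12 (1.96). RALF1, the founding RALF of Arabidopsis and ligand of FERONIA, had 2.04, with 778 of its 854 bp under the peak. By family the medians were 2.51 for CLE and 3.3 for RALF genes, a difference that was not tested.

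For H3K27ac the fold was 1.81 in the median of 16 members (1.47 to 2.17), 1.77 at like length and 1.78 over all marked genes. The highest was CLE17 with 2.17, followed by RALFL26 (2.13), RALFL17 (2.06), RALFL31 (2.05) and RALFL28 (2.04), where the RALFL17 peak of 558 bp again lay wholly on ATZW10. CLE45 and RALFL28 were covered by H3K27ac over their whole span, 884 and 459 bp. CLE11 and RALFL12 had H3K27ac but no H3K4me3, with folds of 1.54 and 1.48.

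Among the CLE genes of the meristem, CLV3, the shoot stem cell peptide that limits WUSCHEL, had no peak of any list, and its nearest H3K4me3 peak was 2574 bp away. CLE40, its counterpart in the root, had 300 of 551 bp under H3K4me3, at a fold of 2.45, and no H3K27ac. CLE16 had 831 bp under H3K4me3 (fold 2.51) together with 449 bp under H3K27me1. CLE17 had 921 bp under H3K4me3, 638 bp under H3K27ac and 664 bp under H3K27me3. So H3K4me3 lay on 3 of these 4 genes, beside 58.9% of genes of like length.

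The vascular CLE genes differed in the peaks called on them. CLE41 and CLE42, which with CLE44 encode the xylem differentiation inhibitor TDIF and its near relative, had no peak in any list, nor did CLE25, a peptide of the phloem. CLE44 had 457 bp under H3K27me3 and CLE26, which restrains the protophloem, had 872 bp, both without H3K4me3 or H3K27ac. CLE9 and CLE10, peptides of xylem and stomatal development, carried H3K4me3 (875 and 698 bp) and H3K27ac (546 and 311 bp). So did CLE45, a protophloem peptide that also acts on pollen tubes in the pistil at high temperature, with 591 bp under H3K4me3 and 884 bp under H3K27ac. An annotated lncRNA covers the whole of CLE45, and peaks have no strand, so the marks of these genes cannot be told apart. In all, 3 of the 8 had H3K4me3, beside 66.1% of genes of like length.

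Of the root and nutrient CLE genes, which respond to nitrogen, sugar or phosphate, 2 of 6 carried H3K4me3, beside 41.8% of genes of like length: CLE2 with 434 bp (fold 2.42) and CLE14 with 500 bp (fold 3.43). CLE1, CLE3 and CLE7 had none of the 4 marks, and none of the 6 had H3K27ac. Over all genes, H3K27ac lay on 16.7% of those under 500 bp and on 36.5% of those from 500 to below 1000 bp. CLE1 had 349 bp under H3K27me1 in the narrow list. CLE4 had 187 bp under H3K27me3. The embryo and seed genes CLE8, which acts in early embryo and endosperm, and CLE19 had no peak in any list. Their nearest H3K4me3 lay 951 and 5494 bp away, and 41.4% of genes of like length had H3K4me3.

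RALF genes of the sporophyte carried H3K4me3 in 5 of 5 cases, beside 71.3% of genes of like length. RALF1 had 778 bp, RALFL22 604 bp, RALF23 655 bp, RALFL33 617 bp and RALFL34 1025 bp. RALF23 acts in immunity and on the stigma, and RALFL34 in lateral root initiation through THESEUS1. H3K27ac was also found on RALF1 (153 bp), RALFL33 (343 bp) and RALFL34 (309 bp), and not on RALFL22 or RALF23. The H3K4me3 peak at RALFL34 was the widest of the set, 3442 bp, and ran 2417 bp past the gene, where the annotation lists no gene.

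Of the RALF genes listed for pollen, 1 of 6 had H3K4me3, beside 41.4% at like length. That gene was RALFL26 with 510 bp under H3K4me3 (fold 3.06) and 584 bp under H3K27ac (fold 2.13). Its neighbour RALFL25, 1728 bp away, had no peak in any list. RALFL8, RALFL9 and RALFL15 had none either, their nearest H3K4me3 peaks lying 2657, 1251 and 854 bp away. RALFL30 had 615 of its 633 bp under H3K27me1, in a broad peak on chromosome 4, 7624647 to 7626848, and 417 bp in the narrow list. RALFL6, RALFL7 and RALFL16, which take part in the block to further pollen tubes at the pistil, had no peak in any list. They were also among the shortest members, at 246 to 288 bp, and 28.6% of genes of like length had H3K4me3. Of the pair left out of the set, RALFL19 had 928 bp under H3K4me3 and 571 bp under H3K27ac, and RALFL4 had no peak in any list.

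The remaining 29 members were in no role list, and 14 of them carried H3K4me3, beside 43.4% of genes of like length. RALFL5 (324 bp) and RALFL28 (459 bp) were covered by H3K4me3 over the whole gene, and RALFL13 and RALFL14 over 83.7% and 92.8%. The RALFL28 peak was 1541 bp wide and ran 1077 bp beyond the gene over a transcribed pseudogene. Members without any of the 4 marks and in no role list were CLE18, CLE21, CLE22, RALFL3, RALFL10, RALFL11, RALFL18, RALFL20, RALFL21, RALFL27, RALFL29 and RALFL32. Over the whole set, 26 members (41.3%), 11 CLE and 15 RALF genes, were marked in none of the 8 lists, against 25.9% of genes of like length and 10.2% of all genes. RALFL27 had its nearest H3K4me3 peak 14636 bp away, the farthest among the members. For the 35 members without H3K4me3 the median distance to the nearest peak was 1370 bp, and only RALFL3 (264 bp) and CLE1 (416 bp) had one within 500 bp.

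H3K27me3 was found on CLE4, CLE17, CLE26, CLE44 and RALFL12. CLE26 had the most bases under it, in a broad peak of 872 bp (42.5% of the gene) on chromosome 1, 26353437 to 26354308, and was the 1 member with H3K27me3 in the narrow list too, at 26353472 to 26354121 with a fold of 3.71, below the 4.55 median of that list. That narrow list marked 1 of 63 members (1.59%), beside 1.00% of genes of like length and 1.48% of all genes. The broad peak of CLE17 ran from 26727808 to 26728471 on chromosome 1 and lay inside its H3K4me3 peak, at 26727782 to 26728702. The CLE44 peak ran from 7662467 to 7662923 on chromosome 4 and overlapped a narrow H3K27me1 peak at 7662591 to 7663060. CLE4 had a peak of 456 bp on chromosome 2, 13237752 to 13238207, of which 269 bp lay beyond the gene. The RALFL12 peak, 1088 bp on chromosome 2 from 8248994 to 8250081, lay mostly on the side toward RALFL11 and covered 205 bp of the gene (61.7%). None of the 5 peaks touched another protein-coding gene. In the broad list the authors give a q over 0.05 for 4 of the 5, all but that at RALFL12, as for 1047 of the 1423 peaks of that list (73.6%). The folds in the broad list did not follow those of the narrow peaks inside them (Spearman's rho -0.0468 over 457 broad H3K27me3 peaks from the same reads), so whether q belongs to its coordinates is unknown.

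**Figure D4:**
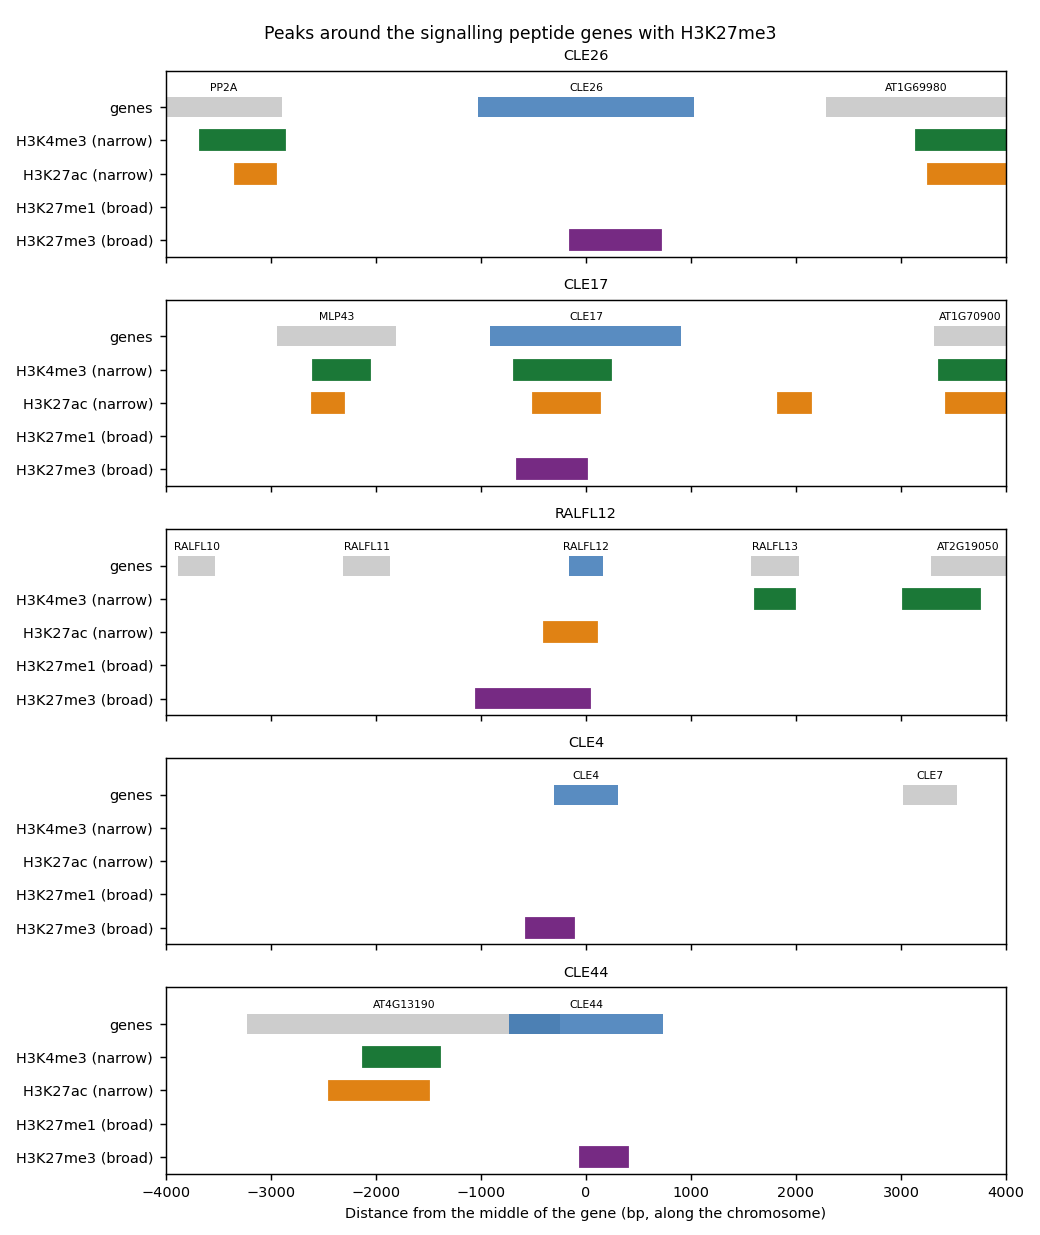
Protein-coding genes and peaks within 4000 bp of the middle of each member with H3K27me3 (horizontal axis, bp along the chromosome, with no strand); the named member is blue and other genes are grey. CLE26, CLE4 and CLE44 have H3K27me3 and neither active mark, CLE17 has H3K27me3, H3K4me3 and H3K27ac over the same stretch, and the RALFL12 peak reaches only its left part.

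H3K27me1 depended on the list. The broad list marked RALFL2, RALFL30, CLE11 and CLE16. The narrow list marked 8 members (12.7%, against 26.5% at like length and 26.9% of all genes): CLE1, CLE10, CLE11, CLE16, CLE43, CLE44, RALFL30 and RALFL32. Both lists shared 3 of them, CLE11, CLE16 and RALFL30. Of the RALF genes 2 of 32 (6.25%) were in the narrow list, beside 26.3% of genes of like length, and of the CLE genes 6 of 31 (19.4%), beside 26.7%. RALFL2 was covered whole by a broad peak of 5246 bp, of which 386 bp lay on RALFL2. The peak also touched AT1G23130 and AT1G23140, with 1156 bp on the 1 it covered most. The RALFL32 peak of 2330 bp lay wholly on AT4G14000, inside which RALFL32 lies. CLE10, at 588 bp, and CLE43, at 347 bp, had narrow H3K27me1 peaks mostly under the same bases as H3K4me3. In the other broad lists, H3K4me3 lay on 17 members (27%, against 43% at like length and 60.9% of all genes), all of them among the 28 of the narrow list. The broad H3K27ac list marked 0 members and 153 genes in all (0.558%).

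Runs of neighbouring members showed that copies side by side could differ. CLE4, CLE7, CLE5 and CLE6 follow each other on chromosome 2. CLE5 had 773 bp under H3K4me3 (fold 3.45) and 699 bp under H3K27ac (fold 1.85), and CLE6 had 425 bp under H3K4me3 (fold 1.95) and no H3K27ac. CLE7, 10219 bp before CLE5, had no peak in any list, and CLE4, 2716 bp further, had H3K27me3 alone. In the run RALFL10 to RALFL13, RALFL10 and RALFL11 had no peak in any list, RALFL12 had H3K27ac with H3K27me3, and RALFL13 had H3K4me3 over 385 of 460 bp. RALFL3, 1553 bp from RALFL2, had no peak in any list. No peak of the 4 chosen lists was shared by 2 members.

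**Figure D5:**
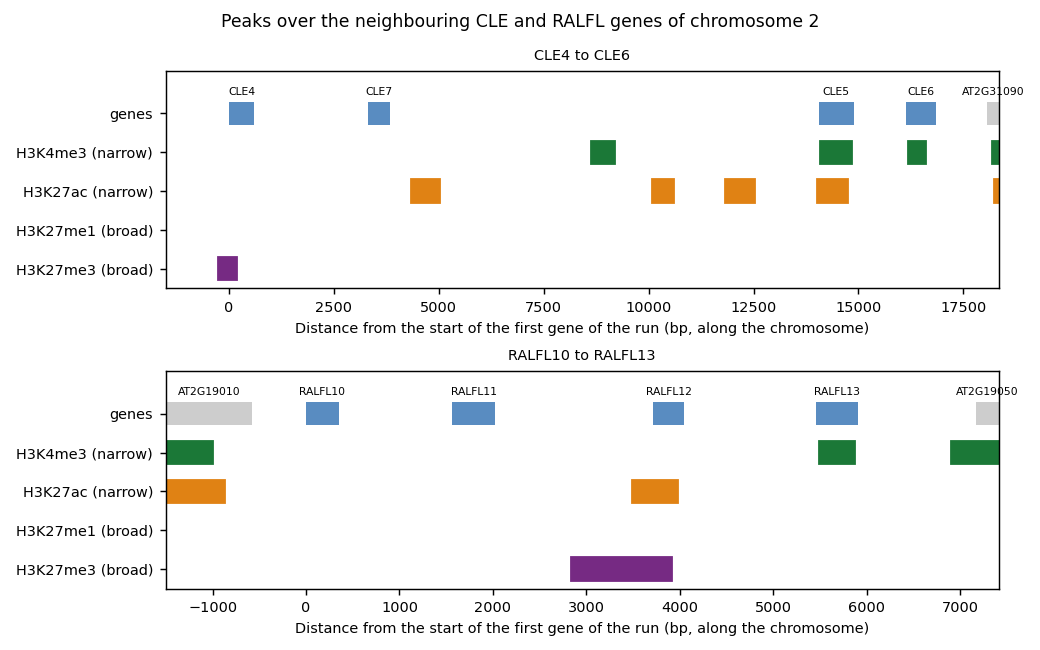
Protein-coding genes and peaks over the runs CLE4 to CLE6 and RALFL10 to RALFL13 of chromosome 2 (horizontal axis, bp from the start of the first gene of the run); members are blue and other genes grey. H3K4me3 covers CLE5, CLE6 and RALFL13, and H3K27me3 touches CLE4 and RALFL12.

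Neighbours outside the set differed little between marked and unmarked members. Of 109 adjacent protein-coding genes that were no members, 90 (82.6%) had H3K4me3, beside 75.2% of all genes. It was 42 of 51 (82.4%) beside members with H3K4me3 and 48 of 58 (82.8%) beside members without it. H3K27me3 lay on 9 of the 109 (8.26%), beside 4.02% of all genes. Among the 9 were HEC1, a bHLH factor of the carpel, 341 bp from RALFL34, and TCP12 next to CLE12. The shares of neighbours were not set beside genes of like length. Of the 28 members with H3K4me3, 26 had a peak with more bases on the member than on any other protein-coding gene, and 15 had it wholly within the gene. Another annotated gene overlaps 12 of the 63, 6 of them with H3K4me3, and for these the peaks cannot be assigned to 1 gene. The members lay on all 5 chromosomes, 23 of them on chromosome 1, of which 11 had H3K4me3.

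The receptors and targets of these peptides were marked more often, and they are longer genes. Of 24 such genes, 17 (70.8%) had H3K4me3, against 82.2% at like length, and 14 (58.3%) had H3K27ac, against 62.3%. H3K4me3 lay on 9 of the 12 CLE receptors, beside 87.0% of genes of like length. Among them, CLV1, the receptor kinase of CLV3, had 2753 bp under H3K4me3 and 1712 bp under H3K27ac. PXY, the receptor of TDIF, had 2074 and 2015 bp. BAM1, BAM2, RPK2, PXL1, PXL2 and SKM1 had both marks as well. BAM3 had H3K4me3 alone of the active marks, at 783 bp, while CLV2, its partner CRN and ACR4 had neither in the narrow lists. The RALF receptors FER, ANX1, ANX2, THE1 and HERK1 carried H3K4me3 in 5 of 5 cases, beside 87.0% of genes of like length, from 1137 bp at ANX2 to 1632 bp at HERK1, and all but ANX2 had H3K27ac. Of the LORELEI family, 1 of 4 had H3K4me3, beside 67.6% of genes of like length. That gene was LLG3 with 1623 bp, and LRE, LLG1 and LLG2 had no peak in any list. Of the CLE targets, 2 of 3 had H3K4me3, beside 74.6% at like length. WUS had H3K4me3 (684 bp), H3K27ac (469 bp) and 1696 bp under H3K27me1, WOX5 had 495 bp under H3K4me3 and no other mark, and WOX4 had no peak in any list. H3K27me1 also lay on BAM2 (2190 bp) and THE1 (3146 bp), making 3 of the 24 genes (12.5%), against 8.86% at like length. The narrow H3K27me1 list marked 6 of the 24, beside 26.9% of all genes. These were CLV2 (1809 bp), BAM2 (524 bp), BAM3 (2573 bp), SKM1 (451 bp), ANX2 (2674 bp) and THE1 (2043 bp).

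H3K27me3 was found on SKM1, which perceives CLE45 in pollen tubes, and on ANX2, a RALF receptor of the pollen tube. SKM1 had 1366 bp in a broad peak on chromosome 2, 11001457 to 11002822, and a narrow peak with a fold of 4.92. ANX2 had 2520 bp in a broad peak on chromosome 5, 10719842 to 10723668, and a narrow peak with a fold of 4.47. Both also had H3K4me3, with 1737 and 1137 bp. These 2 of 24 genes (8.33%) stood beside 3.91% of genes of like length.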

How the data were processed

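The authors deposited 8 peak lists with coordinates on TAIR10, 1 narrow and 1 broad per mark for all replicates of the mark. The lists give the authors' fold per peak, a ratio of immunoprecipitation to control, and their significance as −log10 q of the deposited q value. Tools listed in the submitters' processing notes, without a role or an order, include MACS2 2.1.0, Bowtie2 2.1.0 and Trim Galore 0.4.1. The sources used here give no settings. A peak is a called region, so weak signal can be missing, and the depth is unknown.

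Starts were turned to counts from 1. Genes came from a RefSeq table of TAIR10.1 without strand or sequence, and its coordinates are not printed. On each of the 5 chromosomes, H3K4me3 summits lay nearest to gene ends (within 500 bp) at a shift of 0 bp, tested up to 5000 bp in steps of 250 bp. Members and lists were chosen with earlier results of these data known. Genes were named when they carried H3K27me3 or H3K27me1, ranked among the highest folds, belonged to a role list or had no mark; others were chosen after their values were seen. The CLE and RALF role lists came from general knowledge. The list of 35 receptors, partners and targets lost 11 whose name the gene table does not hold. RALF36 and RALF37 were not found by name. Overlap counting was tested on simulated peaks. Python 3.11.15, numpy 2.4.6, pandas 2.3.3, scipy 1.17.1 and matplotlib 3.10.9 were used.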

Additional observations from a re-analysis of the deposited data

How the results depend on the processing

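Counts of members held within 1.5 times the chosen count except as follows. With the other list of a mark they were 17 for H3K4me3 (difference from genes of like length -16 points, against -3.94), 0 for H3K27ac, 8 for H3K27me1 (difference -13.8 points, against -1.97) and 1 for H3K27me3. With at least 50% of the span under peaks they were 7 for H3K27ac, 2 for H3K27me1 and 1 for H3K27me3, whose difference from genes of like length turned to -0.595 points from 4.73. At least 300 bp left 3 members with H3K27me3. A −log10 q of at least 5 left 1 member each for H3K27me1 (difference 0.039 points) and H3K27me3, resting on the broad-list q. Counting only peaks with more bases on the gene than on any other protein-coding gene gave 2 for H3K27me1. The same setting turned the H3K4me3 difference to 3.67 points. The causes were not tested. A limit of 1 bp, 500 bp added on each side, like length within 25%, adding RALF4 and RALF19, and counting shared peaks once kept every direction. No paired analysis was possible because each list pools its replicates, and for the same reason no replicate could be left out. Peaks of low fold, H3K27me3 above all, may be missing at an unknown depth.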
